A study of Mus musculus with 12 samples.

Results

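The 76 genes described here encode proteins of the mitochondrial ribosome, taken as every gene whose symbol begins with Mrpl or Mrps followed by a digit. They were measured by 156 probe sets on Affymetrix mouse arrays, among 18193 genes and 45037 probe sets in all, and for a gene with several of them the one brightest on average over the 12 arrays was used. By textbook assignment 49 of them are proteins of the large subunit and 26 of the small subunit. Mrps36, in spite of its name, is a component of the α-ketoglutarate dehydrogenase complex. Mrpl30 and Mrpl53 share their probe sets with other gene symbols and were not included.

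The samples were labelled as T cells from the spleens of female C57BL/6 mice, aged 8 to 12 weeks by the labels, and the naive ones also carried transcripts of other cells, as given below. The 5 CD8+ NKT-like samples (titled Expanded CD8 Tcells with Suppression function) were grown from CD8+ cells, enriched by negative selection, with beads carrying anti-CD3 and anti-CD28 and high dose IL-2, and the 3 cultured CD4+ samples (Expanded CD4 Tcells with less suppression) from sorted CD4+ cells by the same protocol. The 2 naive CD8+ samples (Fresh CD8) were not cultured, and the 2 activated CD8+ samples (Stimulated CD8) received anti-CD3 and anti-CD28 in soluble form at low dose. Comparing cultured CD4+ with naive CD8+ cells joins lineage and culture, because the samples analysed here include no naive CD4+ cells. Values are log2 signals made by the authors with RMA, with array medians of 6.23 to 6.42. In the main tests a probe set's signal was set only against its own signal in other samples. The means of cell markers average the signals of several probe sets.

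Mitochondria carry their own ribosomes, which translate the few proteins encoded in mitochondrial DNA, all of them core subunits of the respiratory chain and ATP synthase. The ribosomal RNAs come from mitochondrial DNA, but every protein of the mitoribosome is encoded in the nucleus and imported. Some of these proteins have counterparts in bacteria and others are found only in mitochondria. T cells are known to enlarge their mitochondria and to make more mitochondrial protein when they leave the resting state.

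Promoter sequence is described first, for genes that are spread over the genome and yet varied together. Whether promoter sequence has a part in that was not tested. RefSeq windows of 300 bases around the start (GRCm38.p6, 250 before and 50 after) were at hand for 67 of the 76 genes, 73 windows in all. The core of the site of NRF1, a regulator of nuclear genes for mitochondrial proteins, was searched as GCGCA and GCGC with any 1 base between them, on both strands, and lay in 16.4% of these windows, against 4.6% of all 32851 windows. The ETS core CCGGAAG, which GA-binding protein recognizes among other factors, lay in 34.2% against 8.86%, and the YY1 core ATGGCGGC in 15.1% against 2.24%. The E-box CACGTG, bound by MYC among others, lay in 9.59% against 7.15%. Its 7 member windows came from 5 of the 67 genes, since some genes have several windows. Matches of different motifs may overlap at their ends. The median G and C content was 58.7% in the members' windows against 52.7% in all.

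The 250 bases before the start are shown for 5 genes that recur in the results, with the matches in capitals. Mrpl12 (chr11:120484387-120484636, + strand) and Mrpl17 (chr7:105811088-105811337, - strand) were among the genes with the largest rise, Mrps18a (chr17:46110754-46111003, + strand) followed the mean of the other members most closely, and Mrpl52 (chr14:54426659-54426908, + strand) and Mrps24 (chr11:5707702-5707951, - strand) did not pass in any comparison. Each run ends at the base before the start, and coordinates are those of GRCm38.p6.
Mrpl12: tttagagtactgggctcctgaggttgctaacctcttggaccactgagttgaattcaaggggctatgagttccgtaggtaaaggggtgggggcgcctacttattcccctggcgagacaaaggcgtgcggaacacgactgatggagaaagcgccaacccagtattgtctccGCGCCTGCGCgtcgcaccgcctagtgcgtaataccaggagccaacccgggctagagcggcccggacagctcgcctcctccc
Mrpl17: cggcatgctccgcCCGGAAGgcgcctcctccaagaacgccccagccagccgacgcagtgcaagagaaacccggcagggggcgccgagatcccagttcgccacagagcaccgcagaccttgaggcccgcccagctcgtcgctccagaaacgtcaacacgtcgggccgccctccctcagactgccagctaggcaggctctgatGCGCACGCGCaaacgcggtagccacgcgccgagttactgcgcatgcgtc
Mrps18a: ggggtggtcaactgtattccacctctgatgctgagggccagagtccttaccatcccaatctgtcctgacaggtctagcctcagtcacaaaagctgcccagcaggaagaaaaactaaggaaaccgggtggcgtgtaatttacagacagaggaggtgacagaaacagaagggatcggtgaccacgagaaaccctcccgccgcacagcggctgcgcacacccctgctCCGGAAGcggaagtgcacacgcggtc
Mrpl52: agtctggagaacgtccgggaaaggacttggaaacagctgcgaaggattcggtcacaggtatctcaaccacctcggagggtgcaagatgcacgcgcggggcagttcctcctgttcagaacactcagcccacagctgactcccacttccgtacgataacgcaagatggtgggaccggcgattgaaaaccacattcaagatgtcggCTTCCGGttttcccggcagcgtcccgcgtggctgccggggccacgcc
Mrps24: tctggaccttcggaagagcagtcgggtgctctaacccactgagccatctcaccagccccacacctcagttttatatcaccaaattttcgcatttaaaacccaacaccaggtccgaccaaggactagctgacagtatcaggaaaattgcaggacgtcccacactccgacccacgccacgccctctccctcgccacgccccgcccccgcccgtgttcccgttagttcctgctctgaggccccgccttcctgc
The NRF1 match began 81 bases before the start in Mrpl12 and 49 in Mrpl17, and the ETS match 237 in Mrpl17, 26 in Mrps18a and 47 in Mrpl52. In the 50 bases after the start, which are not shown, lay a YY1 match in Mrps18a and a further ETS match in Mrpl52. No match lay in the Mrps24 window, which says only that these letters are not in it. Matches lay both in genes that rose and in genes that did not. Of 34 genes with a window that were higher in at least 1 comparison with naive cells, 7 held the NRF1 letters, 16 the ETS, 4 the YY1 and 4 the E-box letters, and of the other 33 genes 5, 9, 7 and 1 did.

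Before the results, the samples were set against markers of the cells they could hold. Cd3d, Cd3e, Cd3g and Cd247, which encode chains of the T cell receptor complex, measured 9.03 or higher in every sample. Cd8a and Cd8b1 measured 9.94 or higher in the CD8+ groups and 7.11 or lower in the cultured CD4+ samples, and Cd4 was high only in the latter. Zbtb7b, the other CD4 marker examined, did not set these samples apart. Its mean was 8.44 in them, 8.61 in NKT-like, 8.18 in naive and 7.82 in activated cells. The naive samples also carried transcripts of B cells and red cell precursors at high signal, with Ighm, an antibody heavy chain, at 14.43 and 14.32 and Car1, a carbonic anhydrase of red cells, at 11.46 and 11.71. The mean of 7 B cell markers was 9.36 and 8.96 in the naive samples and 7.23 and 7.09 in the activated, in replicate order. It was 6.25 to 6.8 in the NKT-like and 6.32 to 6.68 in the cultured CD4+ samples. Of the 7, 6 were lower in NKT-like than naive cells, 5 in cultured CD4+ and 3 in activated cells. The mean of 5 red cell precursor markers was 8.51 and 8.91 in the naive samples and between 6.03 and 6.29 in all others, with 3 of 5 lower in each comparison. The mean of 7 myeloid markers was 6.38 and 6.67 in the naive samples and 5.95 to 6.51 elsewhere, with 2 lower in each cultured group. Pax5, Hba-a1 and Alas2 stood near the same low level in every group. The part of these cells in the comparisons with naive samples, all of which share the same 2 samples, was not tested. In RNA of whole populations, fewer cells of a type and less RNA per cell cannot be told apart.

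Mitochondrial ribosomal protein transcripts were lowest in the naive samples. With each gene centred on its mean over the arrays, the median over the 76 genes was -0.75 and -0.92 in the naive samples. It was 0.12, 0.24, -0.23, 0.07 and 0.09 in the NKT-like, -0.25, 0.38 and 0.48 in the cultured CD4+ and 0.58 and -0.04 in the activated samples. Every other sample thus stood above both naive samples, while replicate 1 of the cultured CD4+ and replicate 3 of the NKT-like samples stood below the rest of their groups. The median over all genes lay between -0.05 and 0.05 in every array. The list of cytosolic ribosomal proteins (49 measured genes), those of the ribosomes outside mitochondria, also holds the ribosomal protein-like genes Rps27l and Rpl7l1. Its medians lay between -0.10 and 0.11, with no order of the groups. Nuclear genes for oxidative phosphorylation (83) lay at -0.49 and -0.29 in the naive samples, and activated replicate 2, at -0.25, was close to them.

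**Figure D1:**
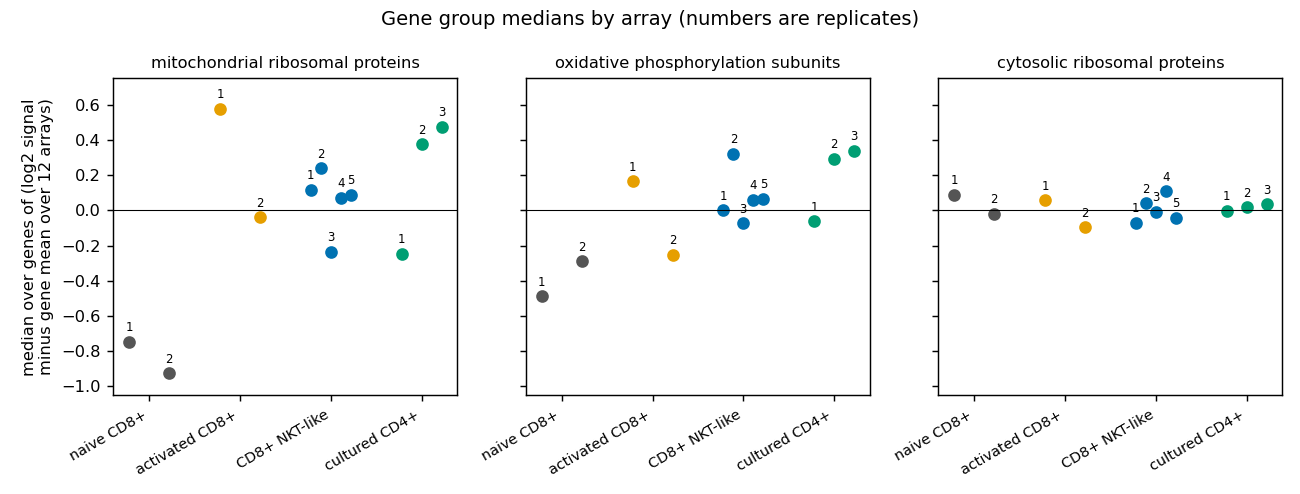
Median over the genes of a group of the log2 signal minus the gene's mean over 12 arrays (vertical axis), for each array in its group, with replicate numbers beside the points. The mitochondrial ribosomal protein medians of the 2 naive arrays, -0.75 and -0.92, lie below all others, and the cytosolic ribosomal protein medians lie within about 0.1 of 0.

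In NKT-like against naive cells, 30 of the 76 genes were higher and none lower at a q-value of 0.01 or less (limma with Storey q-values over all probe sets), which is 39.5% of them, against 10.7% of all genes higher and 6.86% lower. The median difference was 0.90 log2, a fold of 1.86, with the median over all genes at -0.05, and 72 of 76 differences were above 0. In 52 genes every NKT-like value lay above both naive values and in none below, against 20.9% and 28.2% of all genes. Cultured CD4+ cells had 37 genes higher and none lower (48.7%, background 11.6% and 5.64%) with a median of 1.05, and activated cells 17 higher and none lower (22.4%, background 4.43% and 2.78%) with a median of 1.05. Non-overlapping higher and lower genes numbered 53 and 2 in cultured CD4+ cells (background 25.6% and 28.2%) and 59 and 1 in activated cells (background 21.1% and 24.8%). Of the genes, 15 were higher in all of these comparisons, 13 in both cultured groups but not in activated cells, and 37 in none. In NKT-like cells alone 2 were called higher (Mrpl34 and Mrpl57, chosen after their values were seen). Another 7 were higher in cultured CD4+ cells alone and 2 in cultured CD4+ and activated cells (Mrpl1 and Mrpl13). These sets follow the q-value threshold, and neither Mrpl34 nor Mrpl57 was called in NKT-like against cultured CD4+ or activated cells. All cultured CD4+ values of both genes lay above both naive values, as did the activated values of Mrpl34.

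These counts rested in large part on naive replicate 2, without which 3 genes were higher in NKT-like cells, 3 in cultured CD4+ and 2 in activated cells, while the medians stayed at 0.84, 0.94 and 0.97 (a lone naive sample is assumed to vary like the other groups). The cultured CD4+ count was also 13 without its replicate 2, 15 without replicate 3 and 19 without naive replicate 1. The activated count was 2 without its replicate 1, 28 without its replicate 2, 9 without naive replicate 1, 9 without cultured CD4+ replicate 2, 11 without NKT-like replicate 4, 10 without NKT-like replicate 5 and 0 where the pair of groups was fitted alone. The spread of the deposited values differed between arrays, with an SD over probe sets of 1.83 and 1.78 in the naive samples and 1.80 in activated replicate 2 against 1.91 to 2.03 in all others, and its part in the differences from naive cells was not tested beyond quantile normalization. That lowered the medians to 0.60, 0.65 and 0.89, and Benjamini-Hochberg adjustment left 24, 20 and 10 genes. Most calls on named genes against naive cells were lost without naive replicate 2, which leaves a lone naive sample. Mrpl45 and Mrps6 stayed called without any 1 array in all of these comparisons, Mrps16 in NKT-like and Mrpl1 in cultured CD4+ against naive cells.

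**Figure D2:**
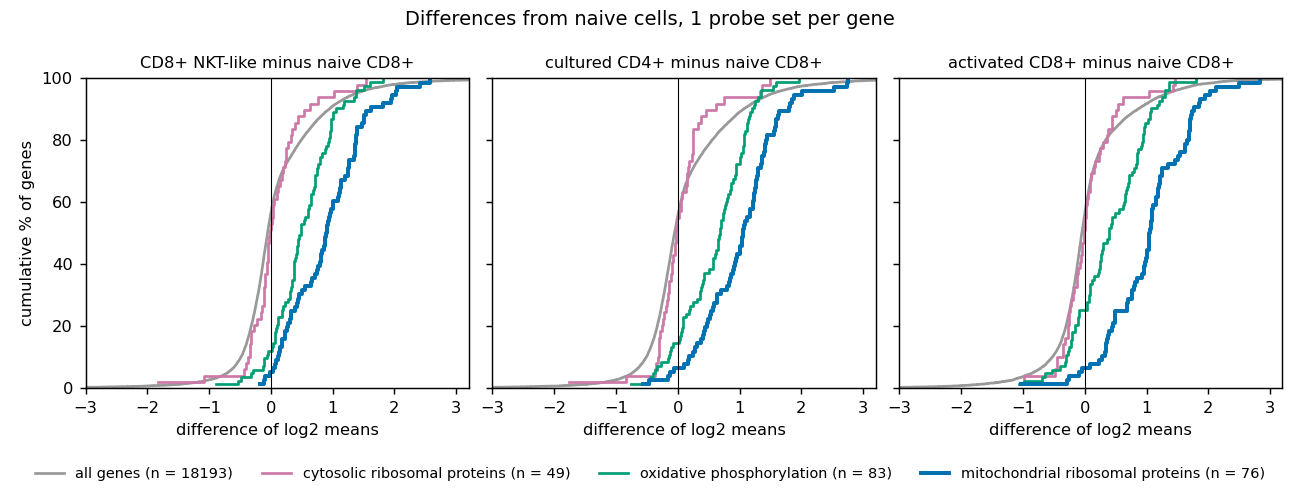
Cumulative percent of genes (vertical axis) against the difference of log2 means from naive cells (horizontal axis), 1 panel for each of the other groups, for all 18193 genes, 49 cytosolic ribosomal proteins, 83 oxidative phosphorylation subunits and 76 mitochondrial ribosomal proteins. At the medians the mitochondrial ribosomal protein curve lies farthest to the right in each panel, at 0.90, 1.05 and 1.05, and the all-gene medians lie near -0.05.

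Among the large-subunit proteins, 23 of 49 were higher in NKT-like cells, 27 in cultured CD4+ and 16 in activated cells. Among the small-subunit proteins 7, 10 and 1 of 26 were. The medians were close together, 0.97 and 0.80 in NKT-like cells, 1.17 and 0.94 in cultured CD4+ and 1.09 and 0.98 in activated cells for large and small subunit, and a difference between the subunits was not tested. Proteins with a bacterial counterpart (20, 25 and 13 of 45 higher) and those specific to mitochondria (10, 12 and 4 of 30) were likewise spread over both outcomes.

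**Figure D3:**
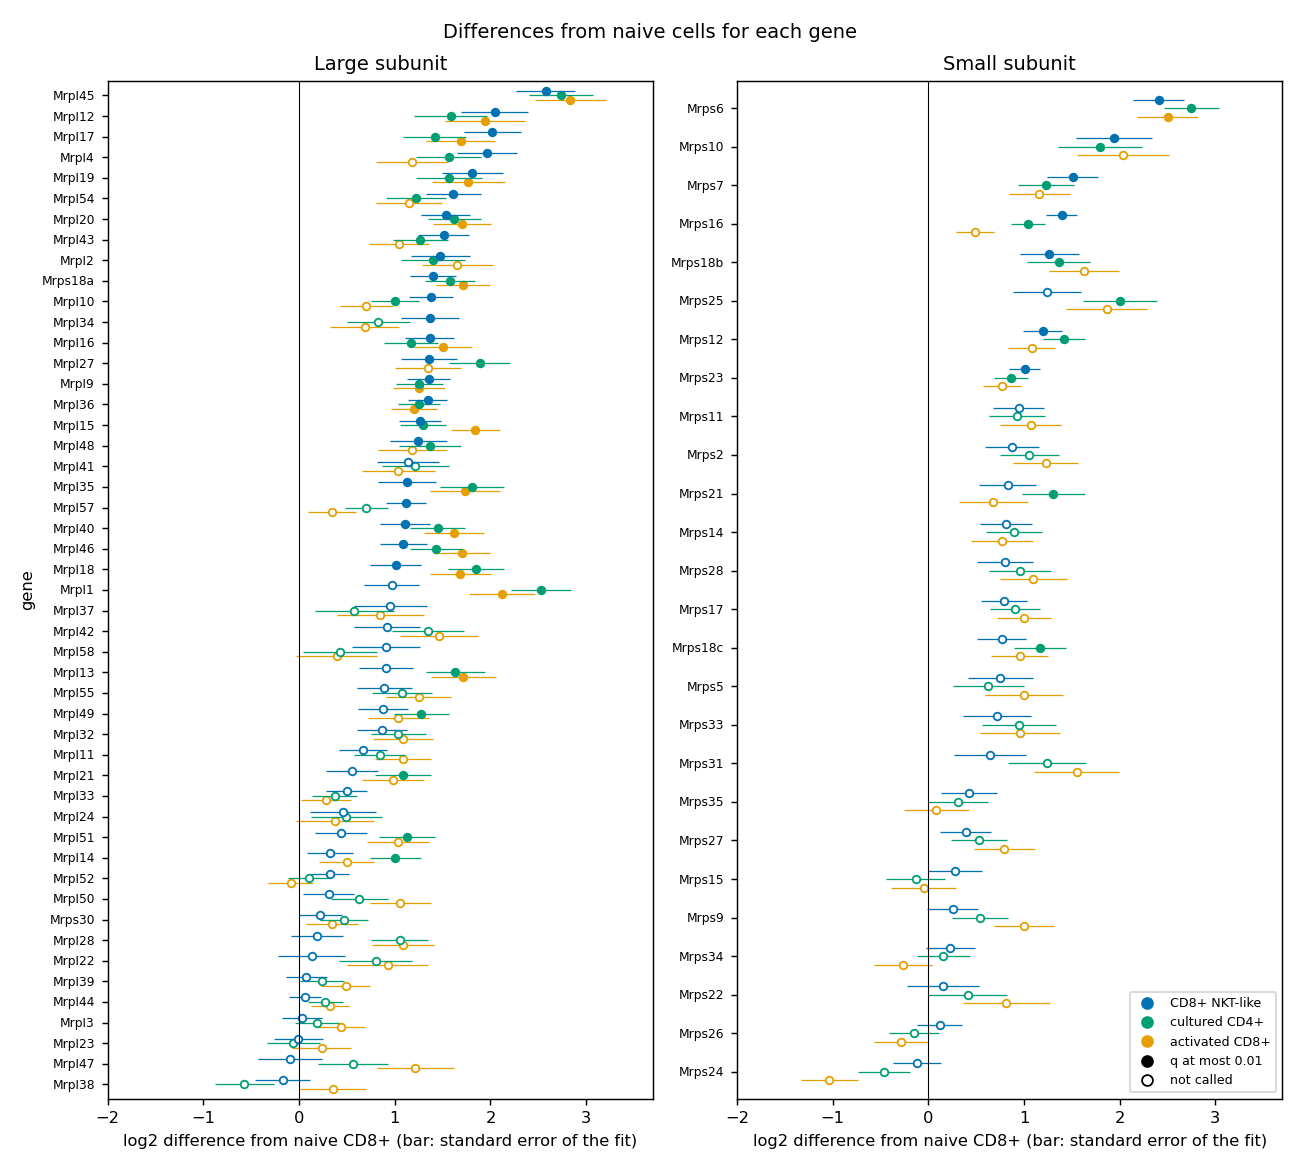
Difference of the log2 mean from naive cells (horizontal axis) for each gene of the large subunit (left) and small subunit (right), ordered by the NKT-like difference. Bars are standard errors of the limma fit, filled points have a q-value of 0.01 or less, and the differences run from -1.03 for Mrps24 to 2.83 for Mrpl45, both in activated cells.

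The largest rise in NKT-like and in activated cells was that of Mrpl45, a protein at the exit of the peptide tunnel that ties the mitoribosome to the inner membrane. Its log2 signal was 7.70 and 6.59 in the naive samples, and 9.55, 9.82, 9.52, 9.99 and 9.75 in the NKT-like, 9.45, 10.11 and 10.10 in the cultured CD4+ and 10.40 and 9.56 in the activated samples. The naive values lay far below those of every other sample, and the other groups overlapped each other. The differences from naive cells were 2.58 ± 0.31 (standard error; 5.97-fold, q = 0.0001), 2.74 ± 0.34 (6.67-fold, q = 0.00014) and 2.83 ± 0.37 (7.13-fold, q = 0.0007), in the order NKT-like, cultured CD4+ and activated.

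The other members at the tunnel exit did not rise alike. Mrpl17, counterpart of bacterial L17, measured 8.47 and 8.00 in naive, 10.63, 10.12, 10.13, 9.82 and 10.57 in NKT-like cells, 9.07, 9.87 and 10.02 in cultured CD4+ and 10.26 and 9.59 in activated cells. It rose by 2.02 ± 0.30 (4.05-fold, q = 0.00041), 1.42 ± 0.33 (q = 0.0046) and 1.69 ± 0.36 (q = 0.008), and no other group overlapped the naive samples. Mrpl22, Mrpl23, Mrpl24 and Mrpl47, the counterparts of bacterial L22, L23, L24 and L29, passed in none of these comparisons. Their differences ranged from -0.09 to 0.46 in NKT-like cells, -0.06 to 0.80 in cultured CD4+ and 0.24 to 1.21 in activated cells. Mrpl24 was split between the naive samples, at 10.19 and 8.60, against 9.42 to 10.12 in all others. Mrpl47 measured 7.99 and 8.72 in naive and 9.84 and 9.30 in activated cells, with 7.77 to 8.69 in NKT-like cultures, so that the activated samples stood above both of these groups without passing the test (q = 0.052 against naive cells).

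At the stalk that recruits translation factors, Mrpl12, which forms its flexible arms as L7/L12 does in bacteria, measured 8.14 and 7.36 in naive cells. It measured 10.38, 9.16, 9.99, 9.44 and 10.001 in NKT-like cells, 8.88, 9.53 and 9.59 in cultured CD4+ and 10.09 and 9.30 in activated cells. All other samples lay above the naive ones, with differences of 2.04 ± 0.35 (4.12-fold, q = 0.001), 1.58 ± 0.38 (q = 0.0059) and 1.94 ± 0.42 (q = 0.0088). Mrpl10, which holds Mrpl12 on the ribosome, rose by 1.38 ± 0.23 in NKT-like (q = 0.00087) and 1.00 ± 0.25 in cultured CD4+ cells (q = 0.0071), and its difference in activated cells was 0.70 ± 0.28 (q = 0.091). Mrpl11, at the base of the stalk, had differences of 0.67, 0.84 and 1.09 and did not pass.

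Of the 7 proteins assigned to the central protuberance, where the subunits face each other and the tRNA, 5 were higher in NKT-like cells, 5 in cultured CD4+ and 3 in activated cells. Mrpl27, the L27 counterpart that reaches toward the peptidyl transferase centre, rose by 1.36 ± 0.29 in NKT-like and 1.89 ± 0.32 in cultured CD4+ cells. Mrpl18, the L18 counterpart, rose by 1.01 ± 0.27, 1.85 ± 0.29 and 1.68 ± 0.32, and Mrpl46 by 1.09 ± 0.25, 1.43 ± 0.27 and 1.70 ± 0.30. Mrpl38 (chosen after its values were seen) was among the proteins of this group that did not pass. It measured 8.20 and 8.59 in naive, 7.88 to 8.70 in NKT-like cells, 7.22 to 8.13 in cultured CD4+ and 9.05 and 8.44 in activated cells. Its differences of -0.17, -0.57 and 0.35 did not pass, while another of its probe sets was lower in both cultured groups.

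The other large-subunit members with the largest changes were counterparts of bacterial proteins in most cases. Mrpl4 rose by 1.96 ± 0.31 in NKT-like and 1.56 ± 0.34 in cultured CD4+ cells, and Mrpl19 by 1.81 ± 0.32, 1.57 ± 0.35 and 1.77 ± 0.38 in all of the comparisons. Mrpl20 rose by 1.53 ± 0.25, 1.62 ± 0.28 and 1.70 ± 0.30, Mrpl15 by 1.26 ± 0.22, 1.29 ± 0.24 and 1.84 ± 0.26, and Mrpl35 by 1.13 ± 0.31, 1.81 ± 0.33 and 1.73 ± 0.37. Mrpl13 rose by 1.63 ± 0.31 in cultured CD4+ and 1.72 ± 0.34 in activated cells. Mrpl54 (1.61 ± 0.29 in NKT-like, 1.22 ± 0.32 in cultured CD4+) and Mrpl43 (1.51 ± 0.27 and 1.27 ± 0.29), both found only in mitochondria, rose in the cultured groups. At the other end stood Mrpl3, the L3 counterpart, at 9.61 and 10.11 in naive and 9.60 to 10.10 in NKT-like cells, a difference of 0.03. That of Mrpl23 was -0.01. Mrpl52 differed by 0.32, 0.10 and -0.09.

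Mrps6, the small-subunit counterpart of bacterial S6, had the largest rise of its subunit, and of all members in cultured CD4+ cells. It measured 8.52 and 8.92 in naive, 10.79, 10.96, 11.57, 11.38 and 10.95 in NKT-like cells, 10.99, 11.69 and 11.72 in cultured CD4+ and 11.50 and 10.95 in activated cells. Every other sample lay well above the naive ones, and the differences were 2.41 ± 0.26 (5.31-fold, q = 6e-05), 2.75 ± 0.29 (6.71-fold, q = 5.1e-05) and 2.50 ± 0.32 (5.66-fold, q = 0.0006). It was the 1 small-subunit gene called in activated cells. Both of its probe sets were called higher in NKT-like cells, by 2.47 and 2.41, but Mrps6 overlaps Slc5a3 in RefSeq, and whether the probe sets also read transcripts of that gene was not tested.

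Mrps10, the S10 counterpart, rose by 1.94 ± 0.40 in NKT-like and 1.79 ± 0.44 in cultured CD4+ cells, and its difference of 2.03 ± 0.48 in activated cells missed the threshold (q = 0.013). Mrps12, the S12 counterpart at the decoding site, rose by 1.20 ± 0.20 (q = 0.00094) and 1.42 ± 0.22 (q = 0.00059) in the cultured groups, with 1.08 ± 0.24 in activated cells (q = 0.011). Mrps25, found only in mitochondria, rose by 2.00 ± 0.39 in cultured CD4+ cells (q = 0.0018), and its 1.24 ± 0.35 in NKT-like cells had q = 0.011. Several differences in activated cells were as large as those in the cultured groups but missed the threshold, with 2 samples on either side.

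The S18 family has 3 members in mitochondria, of which Mrps18a sits in the large subunit and Mrps18b and Mrps18c in the small one. Mrps18a measured 7.90 and 7.32 in naive and 8.92 to 9.07 in NKT-like cells, 8.64, 9.43 and 9.49 in cultured CD4+ and 9.62 and 9.01 in activated cells. It was above the naive values in every other sample and rose by 1.40 ± 0.24, 1.58 ± 0.26 and 1.71 ± 0.29. Mrps18b rose by 1.27 ± 0.30 and 1.36 ± 0.33 in the cultured groups and Mrps18c by 1.17 ± 0.27 in cultured CD4+ cells, with 0.76 ± 0.25 in NKT-like cells (q = 0.02).

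**Figure D4:**
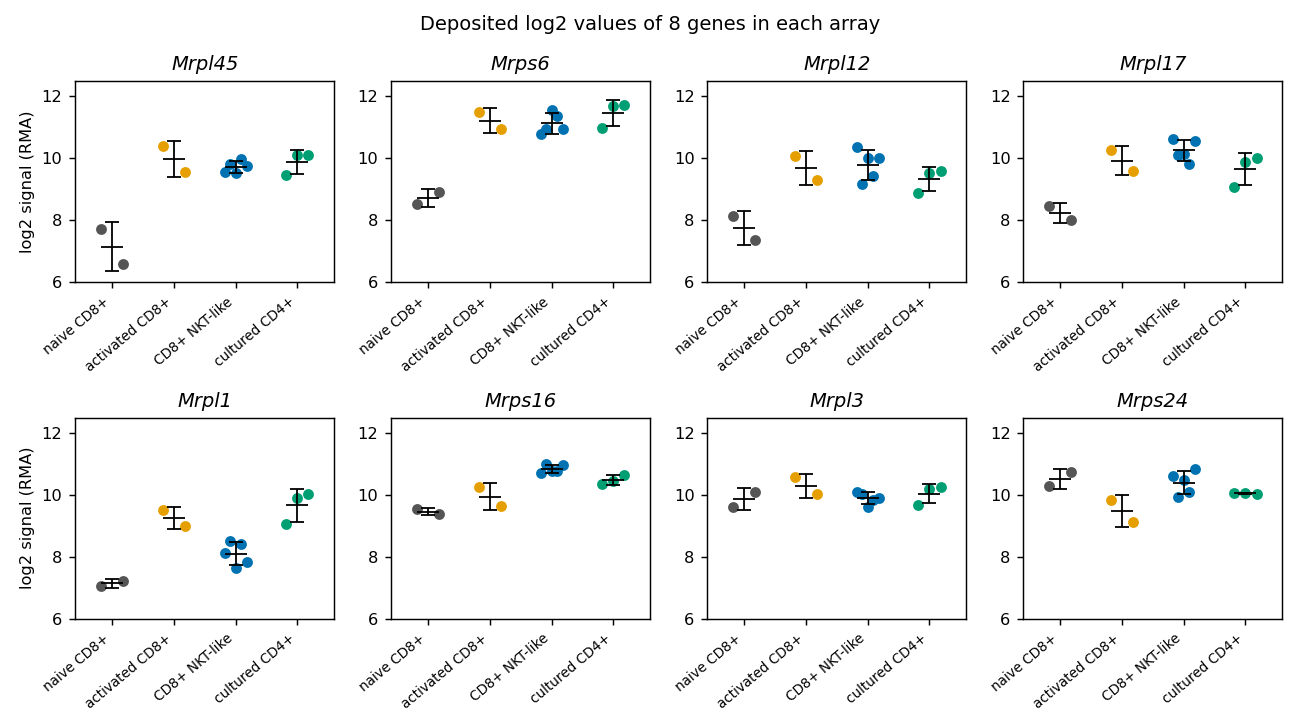
Log2 RMA signal (vertical axis) of 8 genes in each array, with the mean and SD of each group in black. Mrpl45, Mrps6, Mrpl12 and Mrpl17 were higher in all other groups than in naive cells, Mrpl1 took a lower level in NKT-like cultures than in cultured CD4+ ones, Mrps16 was higher in NKT-like than in activated cells, and Mrpl3 and Mrps24 did not pass in any comparison.

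Some small-subunit members did not take part. Mrps24, the S3 counterpart (chosen after its values were seen), measured 10.30 and 10.74 in naive, 9.94 to 10.85 in NKT-like cells, 10.04 to 10.07 in cultured CD4+ and 9.84 and 9.13 in activated cells. Its activated values lay below both naive ones, a difference of -1.03 that did not pass here but was called lower after quantile normalization. Mrps15, the S15 counterpart, had differences of 0.28, -0.13 and -0.05, and Mrps35 of 0.43, 0.31 and 0.09. Mrps36, the member that belongs to another complex, had differences of 0.17, 0.44 and 0.45 and was not called in any comparison.

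Setting the activated states against each other addressed whether these transcripts set the NKT-like cells apart from other stimulated T cells. Few genes differed. Against cultured CD4+ cells, none was higher and Mrpl1 alone was lower (background 1.24% and 1.85%), with a median difference of -0.13, and in 2 genes the NKT-like values lay above and in 3 below without overlap (background 6.6% and 8.26%). Against activated cells, Mrps16 alone was higher and none lower (background 3.36% and 1%), with a median of -0.17, and 4 genes lay above and 8 below (background 12.7% and 10.6%). Cultured CD4+ and activated cells had none called in either direction (background 1.53% and 0.319%), with a median of -0.03, and 2 genes lay above and 2 below (background 15.5% and 8.87%). A missed call is not a sign of equal levels, since leaving out single arrays moved these medians between -0.35 and 0.04, -0.51 and 0.17, and -0.34 and 0.25.

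Mrpl1, counterpart of the bacterial protein L1 of the stalk beside the exit site of tRNA, measured 7.04 and 7.23 in naive and 8.13, 8.51, 7.65, 8.40 and 7.83 in NKT-like cells. It measured 9.06, 9.90 and 10.05 in cultured CD4+ and 9.50 and 9.01 in activated cells. The NKT-like cultures formed a middle level that overlapped no other group. Mrpl1 rose by 2.53 ± 0.32 in cultured CD4+ (5.78-fold, q = 0.00015) and 2.12 ± 0.35 in activated cells (q = 0.0023) against naive cells, and its 0.97 ± 0.29 in NKT-like cells did not pass (q = 0.014). The direct difference of NKT-like from cultured CD4+ cells was -1.56 ± 0.25, 2.96-fold lower (q = 0.004), and that from activated cells -1.15 ± 0.29 (q = 0.024). The call against cultured CD4+ cells was lost when NKT-like replicate 1, NKT-like replicate 5, or replicate 2 or 3 of the cultured CD4+ cells was left out.

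Mrps16, counterpart of bacterial S16, showed the other order. It measured 9.53 and 9.38 in naive and 10.26 and 9.63 in activated cells, against 10.70, 10.99, 10.78, 10.77 and 10.99 in NKT-like and 10.34, 10.47 and 10.66 in cultured CD4+ cells. NKT-like values lay above those of all other samples. It rose by 1.39 ± 0.16 in NKT-like (2.63-fold, q = 9.2e-05) and 1.04 ± 0.18 in cultured CD4+ cells (q = 0.00096) against naive cells, and its 0.49 ± 0.19 in activated cells did not pass (q = 0.093). It was 0.90 ± 0.16 higher in NKT-like than activated cells (1.87-fold, q = 0.0051), a call lost without any of NKT-like replicates 2 to 5, cultured CD4+ replicate 2 or activated replicate 2, and with each pair fitted alone or a trended robust prior.

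The members varied alike over the arrays. The correlation of a gene with the mean of the other members over 12 arrays had a median of 0.84 and was above 0.8 in 45 of 76, as a description of arrays that share the naive samples as their low end. Mrps18a (0.97), Mrpl40 (0.97), Mrpl55 (0.97) and Mrpl20 (0.96) followed the mean most closely. Mrps24, at -0.31, was the 1 gene below 0, and Mrps26 (0.02), Mrps34 (0.15) and Mrpl38 (0.15) followed it least of the others. Apart from Mrps18a and Mrpl20 these genes were chosen after their values were seen.

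**Figure D5:**
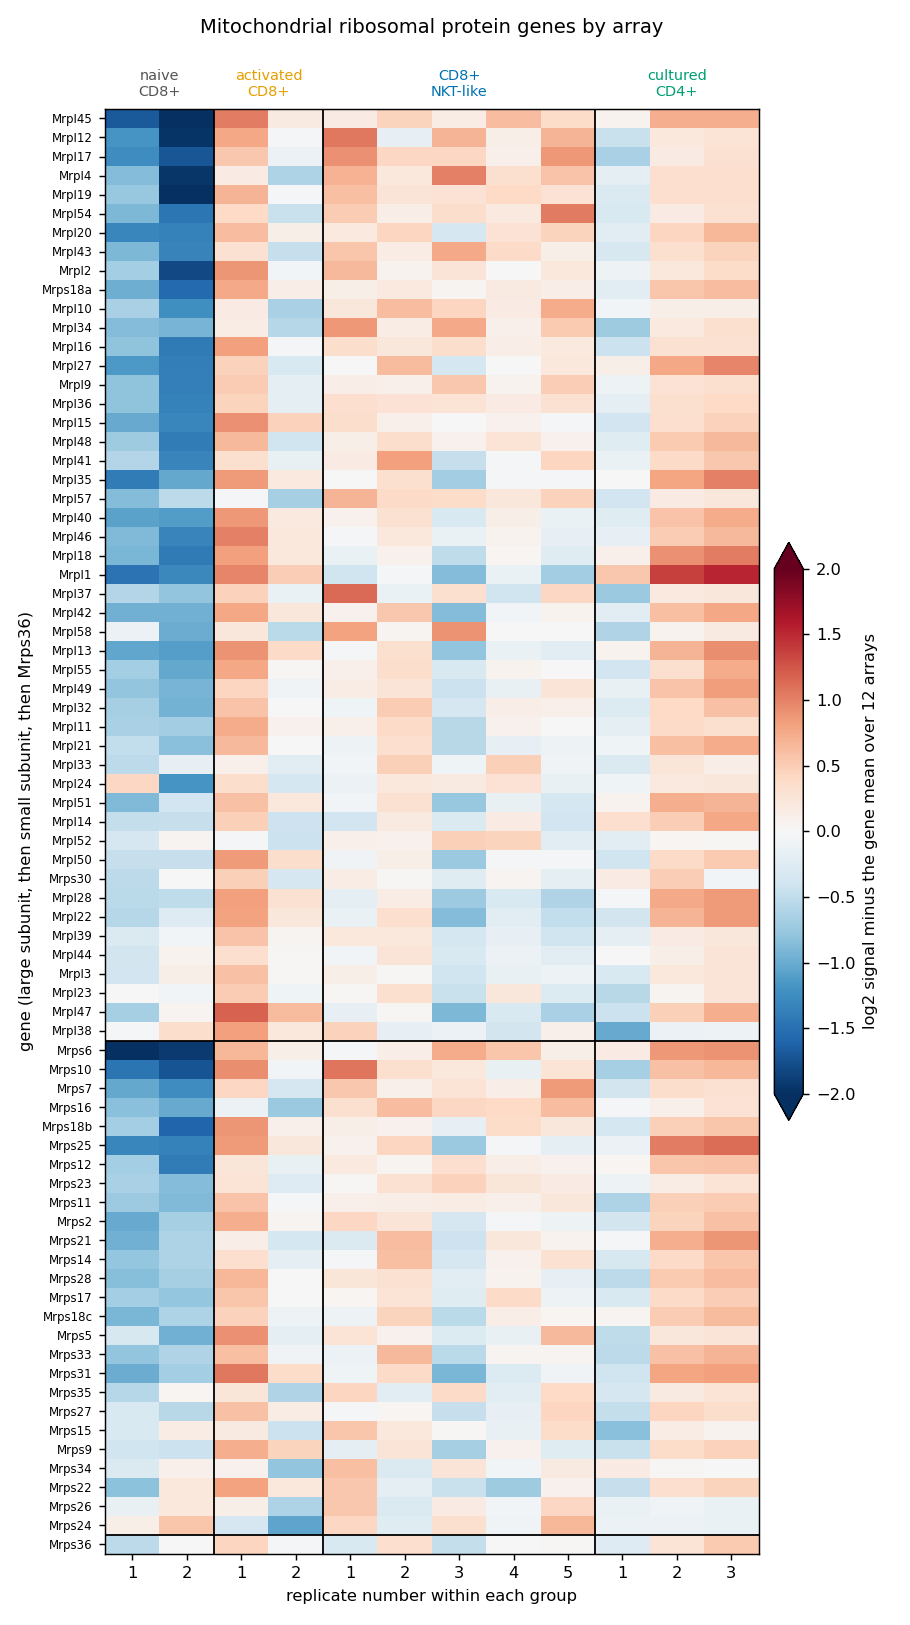
Log2 signal minus the gene's mean over 12 arrays (colour, limited to 2 in either direction) for the 76 genes in each array, large subunit above, small subunit below and Mrps36 last, each subunit ordered by the NKT-like difference from naive cells. The 2 naive columns are blue for most genes, while Mrps24, Mrpl38 and Mrpl23 show no such pattern.

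For 42 genes with several probe sets, the 80 probe sets not used above were less uniform. In NKT-like against naive cells 12 of them were higher and 4 lower, and 44 took the sign of the main probe set. In cultured CD4+ cells 17 were higher, 4 lower and 45 of the same sign, and in activated cells 7, 0 and 54. The 4 lower ones in NKT-like cells belonged to Mrpl51, Mrpl11, Mrpl3 and Mrpl38 (-0.35, -0.50, -0.72 and -0.87). For Mrpl15 and Mrpl51 probe sets were called in opposite directions in cultured CD4+ cells. The main probe set of Mrpl15 rose by 1.29 and another fell by 0.66, and that of Mrpl51 rose by 1.13 while another, at 4.42 against 4.79, fell by 0.37. Which transcripts the opposing probe sets read was not tested. The mean of all probe sets of each gene gave medians of 0.59 in NKT-like cells, 0.70 in cultured CD4+ and 0.79 in activated cells.

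Genes that act with the mitoribosome are given beside the same shares of all genes, 10.7% higher and 6.86% lower in NKT-like, 11.6% and 5.64% in cultured CD4+ and 4.43% and 2.78% in activated against naive cells. Of 24 genes for its assembly and rRNA modification none was higher and 3 were lower in NKT-like cells: Mrm1, a methyltransferase of the large rRNA (-0.88 ± 0.19), Nsun4, which methylates the small rRNA and aids assembly (-0.78 ± 0.14), and Mtg2, a GTPase of large-subunit assembly (-0.59 ± 0.14). The same 3 were the lower ones in cultured CD4+ cells (-0.92, -0.77 and -0.65), and none was called in activated cells. The medians of this list were 0.14, 0.37 and 0.34. Mpv17l2, another assembly factor, was 1.27 ± 0.23 higher in NKT-like than activated cells.

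Of 15 translation factors, 2 were higher in NKT-like cells, Mtfmt, which formylates the initiator tRNA (1.37 ± 0.28), and Oxa1l, which inserts new proteins into the inner membrane (1.25 ± 0.25). In cultured CD4+ cells Slirp, which stabilizes mitochondrial mRNAs, was higher (1.68 ± 0.36), and in activated cells Gfm1, an elongation factor (1.63 ± 0.33). Of 19 mitochondrial aminoacyl-tRNA synthetases, which charge the tRNAs, none passed in NKT-like or activated cells, and Fars2 alone in cultured CD4+ cells (0.99 ± 0.24). Of 12 genes for transcription and replication of mitochondrial DNA, Tfb2m, a transcription factor, was higher (1.499 ± 0.29) and Polg2 and Mgme1, of replication, lower (-0.58 ± 0.15 and -0.49 ± 0.12) in NKT-like cells, with none called in the other comparisons with naive cells. Dguok, which makes precursors of mitochondrial DNA, was 1.16 ± 0.23 higher in NKT-like than activated cells. None of 4 mitoribosome proteins with other symbols was called. For these lists single arrays were not left out in turn.

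Among 11 nuclear regulators of mitochondrial biogenesis the outstanding gene was Mycn, a MYC family factor, with a mean of 10.64 in NKT-like cells against 6.26 in naive, 7.42 in cultured CD4+ and 6.41 in activated cells. The differences were 4.38 ± 0.34, 3.22 ± 0.30 and 4.23 ± 0.34, all called, and Mycn did not pass in cultured CD4+ or activated against naive cells. Gabpb2, a subunit of GA-binding protein, and Ppargc1b, a coactivator, were lower in NKT-like than naive cells (-0.90 ± 0.24 and -0.80 ± 0.22). Esrra, a nuclear receptor, was 1.06 ± 0.19 higher in NKT-like than activated cells. Nrf1, Gabpa, Gabpb1, Yy1, Myc, Pprc1 and Ppargc1a were called in no comparison. The mean of Myc was 10.89 in NKT-like, 10.35 in naive, 10.74 in cultured CD4+ and 11.77 in activated cells.

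The respiratory chain subunits encoded in the nucleus, which outside complex II work with partners that the mitoribosome makes, had smaller median differences than its proteins. Of 83, 22 were higher and 1 lower in NKT-like cells, 29 and 0 in cultured CD4+ and 6 and 0 in activated cells, with medians of 0.49, 0.68 and 0.40. Uqcrq of complex III (1.81 ± 0.25), Sdhd of complex II (1.60 ± 0.24), Uqcrc1 of complex III (1.51 ± 0.37) and Ndufa9 of complex I (1.38 ± 0.35) changed most in NKT-like cells, and Ndufb4 of complex I was lower (-0.88). After quantile normalization of the arrays the counts were 9 and 2, 6 and 1, and 4 and 1, and without naive replicate 2 they were 2 and 0, 5 and 0, and 1 and 0. Of 49 cytosolic ribosomal proteins, 3 were higher and 3 lower in NKT-like cells, 2 and 1 in cultured CD4+ and 1 and 0 in activated cells, with medians of -0.01, -0.03 and -0.01 that turned to 0.05, 0.05 and 0.07 after quantile normalization. Rps27l (1.54 ± 0.17) and Rpl7l1 (1.01 ± 0.27), both ribosomal protein-like genes, and Rpl14 (1.39 ± 0.37) were higher in NKT-like cells. Rpl12 (-1.82 ± 0.35), Rps29 (-0.41 ± 0.11) and Rps24 (-0.37 ± 0.10) were lower. Differences between these lists and the mitochondrial ribosomal proteins were not tested.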

How the data were processed

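RNA of 12 samples was hybridized to Affymetrix mouse genome arrays, 1 array a sample. The deposited values are log2 signals that the authors made with RMA. Its version is not known here, nor whether the arrays were normalized as 1 set. The number of arrays limits the precision. The study describes the cultures as independent, and nothing says whether the naive and activated samples came from separate mice, so p-values measure the spread between these samples. Of 45101 probe sets 64 controls were left out, and 34945 carried 1 gene symbol, 932 several and 9160 none in the platform annotation. A model with 4 group means was fitted to the arrays together by limma 3.58.1 in R 4.3.3, with 8 residual and 3.03 prior degrees of freedom, and Storey q-values were computed for each of 6 comparisons, with calls at 0.01 at any fold. A fold is 2 to the power of a difference of log2 means, and errors are standard errors of the fit. The models were also run on simulated data with independent noise around the mean of each probe set. Such data hold no shift or spread particular to an array, so that run cannot speak to the part of single arrays.

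The members, gene lists and tests were chosen with earlier results of these data known, so counts over them are descriptions. Named members are the 10 with the largest passing change in each comparison, any called against the rest, the 2 with the smallest difference from naive cells in each comparison with them, the S18 family, Mrps36, Mrps12, the stalk and tunnel exit proteins, those with opposing probe sets or an outlying sample, and of other lists up to 4 with the largest passing change. Promoter windows came from RefSeq (GRCm38.p6), with none at hand for 9 members. Alternatives were each pair fitted alone, Benjamini-Hochberg adjustment, quantile normalization, median centring, a trended robust prior, a filter on dim probe sets, the mean of all probe sets, a replicate block, each array left out and, added after the data were seen, another choice of probe set. Plots were drawn with matplotlib 3.10.9 in Python 3.11.15.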

Additional observations from a re-analysis of the deposited data

Results flagged for a closer look

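Mrpl50, a large-subunit protein found only in mitochondria, had 1 NKT-like sample far from the others of its group. It measured 7.71 in replicate 3 against 8.37, 8.56, 8.40 and 8.42, a gap of 0.67 log2 that made up 0.782 of the range, above the critical value of 0.71 for 5 samples. It was the 1 gene of 76 so marked (1.32%), where chance marks about 1 group in 20. Replicate 3 also had the lowest median over all members among the NKT-like samples, -0.23.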

How the results depend on the processing

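No named member that was called changed its sign under any alternative run. The NKT-like count against naive cells was 30 and lay between 3 and 40 with single arrays left out. 1 gene (Mrpl38) became lower with the other choice of probe set, and the median was 0.60 with quantile normalization and 0.59 with the mean of all probe sets. The cultured CD4+ count of 37 lay between 3 and 54, with 20 by Benjamini-Hochberg adjustment. 1 gene (Mrpl38) was lower with the mean of all probe sets and 1 (Mrpl38) with the other choice of probe set, and the median was 0.65 with quantile normalization and 0.70 with the mean of all probe sets. The activated count of 17 lay between 2 and 28, with 0 for the pair alone, 10 by Benjamini-Hochberg adjustment, 27 with quantile normalization, which also made 1 gene (Mrps24) lower, and 10 with median centring. Medians without single arrays lay between 0.81 and 0.96, 0.91 and 1.33, and 0.77 and 1.33. NKT-like against activated cells had 0 higher for the pair alone and with the trended robust prior, and 2 lower (Mrpl1 and Mrpl47) with quantile normalization. Without single arrays the higher and lower counts lay between 0 and 1 there and the median between -0.51 and 0.17. Against cultured CD4+ cells, the lower count of NKT-like cells lay between 0 and 1 and the median between -0.35 and 0.04, and for cultured CD4+ against activated cells the higher count between 0 and 1 (Mrps16) and the median between -0.34 and 0.25. The cause of these changes was not tested, apart from the smaller groups that leaving out an array makes. Signal near the lower end of the scale includes background.

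Of all calls over 18193 genes, 61% were higher in NKT-like against naive cells, 48.7% with quantile normalization and 71.4% with median centring, 50.1% for the pair alone. For cultured CD4+ cells these were 67.3%, 54% and 77.3%. Median centring moved the all-gene median from -0.05 to 0.06 in NKT-like and 0.07 in cultured CD4+ cells and the members' medians to 1.01 and 1.18.

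Whether replicate numbers pair the samples could not be decided from the values. In the naive and in the activated group the deviations of the 2 samples from the group mean mirror each other. Correlations with either group are therefore fixed in part, such as 0.28 for naive and activated samples of the same number and -0.28 for those of different number. The deviations of 13 pairs with the same number correlated between -0.501 and 0.28, 3 of them above 0.1, and those of 38 other pairs between -0.376 and 0.501. With the replicate block 1 member was higher in NKT-like cells, 3 in cultured CD4+ and 1 in activated against naive cells, 0 lower in NKT-like against cultured CD4+ and 0 higher against activated cells.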
